A study of Mus musculus with 285 samples.

Results

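The 29 Hox genes with values in this series were followed through skeletal muscle of 285 mice. They were chosen by symbol alone, as every gene of the array whose name begins with Hoxa, Hoxb, Hoxc or Hoxd followed by a number, and with values on at least 80% of the arrays. All 29 had 1 probe each and a value on all 285 arrays, and they stood among 11622 named genes and 9890 unnamed probes. The Hoxa cluster on chromosome 6 was represented by 6 of its 11 RefSeq genes, Hoxb on chromosome 11 by 7 of 10, Hoxc on chromosome 15 by 8 of 9 and Hoxd on chromosome 2 by 8 of 9. The other 10 were not analysed here. By paralogue number, 5 members were anterior (1 to 3), 10 central (4 to 8) and 14 posterior (9 to 13).

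The mice were F2 females and males of crosses between C57BL/6J and C3H/HeJ, run in both directions. All had 12 weeks of Western diet (42% fat, 0.15% cholesterol) after chow (4% fat) up to 8 weeks of age, and were killed at 20 weeks, fasted for 12 hours. The RNA of every mouse, labelled with Cy3, was hybridised beside a Cy5-labelled pool of equal RNA portions from all of them. The labels name no muscle, and no sex, litter, cross direction or handling day for single mice, so the mice formed 1 group without a control, ordered by the mouse number in the title, from 51 to 362. A value below is the log2 ratio of mouse over pool, so that 0 equals the pool and 1 is 2 times the pool.

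Hox genes encode homeodomain transcription factors that give cells of the embryo their position along the head-to-tail axis and along the limb. Within a cluster the genes lie on the chromosome in the order in which they act along the body, low paralogue numbers in the hindbrain and neck and high ones in the lumbar, tail and limb regions. Cells of adult connective tissue and muscle can keep a Hox pattern that reflects where in the body they formed. In whole muscle, fewer cells of a type and less RNA per cell cannot be told apart.

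The promoters of 4 of the members that varied most with the mouse number are shown because these genes moved in blocks along the number, Hoxd4, Hoxd9 and Hoxd10 together and Hoxa11 apart from them. RefSeq's GRCm38.p6 promoter windows, 250 bases before to 50 after the start, matched 16 of the 29 members. The windows are chr6:52245761-52246060 (minus strand) for Hoxa11, chr2:74721728-74722027 (plus strand) for Hoxd4, chr2:74697513-74697812 (plus strand) for Hoxd9 and chr2:74691641-74691940 (plus strand) for Hoxd10. Capitals mark matches on either strand to TAAT, the core that homeodomains bind, and to TATAAA, the TATA box.
Hoxa11: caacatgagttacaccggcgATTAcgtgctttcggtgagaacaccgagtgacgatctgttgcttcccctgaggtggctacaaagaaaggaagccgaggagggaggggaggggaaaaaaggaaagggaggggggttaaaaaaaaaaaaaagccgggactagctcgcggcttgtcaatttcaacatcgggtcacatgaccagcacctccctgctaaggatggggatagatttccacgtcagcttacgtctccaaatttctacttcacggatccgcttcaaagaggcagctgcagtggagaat
Hoxd4: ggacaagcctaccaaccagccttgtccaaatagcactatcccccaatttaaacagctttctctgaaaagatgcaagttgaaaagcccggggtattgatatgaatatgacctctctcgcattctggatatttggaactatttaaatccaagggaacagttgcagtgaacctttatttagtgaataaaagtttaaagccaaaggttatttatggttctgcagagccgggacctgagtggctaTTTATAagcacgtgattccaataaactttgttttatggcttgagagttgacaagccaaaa
Hoxd9: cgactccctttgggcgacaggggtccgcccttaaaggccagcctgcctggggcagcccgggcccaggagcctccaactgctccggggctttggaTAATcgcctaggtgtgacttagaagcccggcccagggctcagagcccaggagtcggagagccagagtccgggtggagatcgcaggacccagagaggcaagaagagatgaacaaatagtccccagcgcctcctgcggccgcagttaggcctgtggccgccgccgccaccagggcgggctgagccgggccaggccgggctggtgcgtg
Hoxd10: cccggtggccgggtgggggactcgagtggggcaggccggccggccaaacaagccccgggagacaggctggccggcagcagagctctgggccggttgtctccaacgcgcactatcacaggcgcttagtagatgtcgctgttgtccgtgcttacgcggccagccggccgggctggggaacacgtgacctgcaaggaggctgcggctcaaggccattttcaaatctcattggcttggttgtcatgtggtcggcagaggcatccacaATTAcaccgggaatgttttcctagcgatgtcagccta
The windows of Hoxa11, Hoxd9 and Hoxd10 held 1 TAAT each. That of Hoxd4 held no TAAT and 1 TATAAA. TGATNNAT, a site of Pbx and Hox proteins together, was searched on both strands and was in none of these 4 windows; where it occurs it can overlap TAAT. Among 32851 promoters of 300 bases, 58.0% held TAAT, 13.6% TATAAA and 8.85% TGATNNAT. A match is a string of letters and not a measured binding site.

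The most variable Hox gene among the mice was Hoxa11, which with its Hoxd paralogue patterns the forearm and lower leg. It lay between -1.98 and 3.35 with a median of 0.02, and its SD of 1.02 was above that of 99.5% of all features. In 88 of 285 mice it was at least 2 times above or below the pool. Of the Hoxc cluster, Hoxc11, a gene of the hind limb and tail region, had the largest SD, 0.51, with values from -2.64 to 1.19 and a median of -0.18. Of Hoxd it was Hoxd3, which acts in the neck vertebrae, with an SD of 0.44, a median of -0.05 and values from -1.38 to 1.64. Of Hoxb it was Hoxb2, a hindbrain gene, with an SD of 0.33, a median of 0.04 and values from -1.26 to 0.77. The other members had SDs from 0.13 to 0.45, the smallest in Hoxb7. The median SD was 0.26 for the 29 members and 0.21 for all features. It was 0.18 for Hoxb, 0.23 for Hoxa, 0.30 for Hoxd and 0.39 for Hoxc, and by position 0.18 for anterior, 0.21 for central and 0.32 for posterior members.

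The mice were divided into 16 runs of 20 consecutive numbers, of 12 to 20 mice each, and the share of a gene's variance that lay between runs was computed. In limma's F-test across runs, adjusted by Benjamini-Hochberg over all features, 24 of the 29 members differed, against 84.6% of all 21512 features, so that the count of members is near that of the array as a whole. The 5 that did not pass were Hoxb7, Hoxc12, Hoxd1, Hoxd3 and Hoxd12. The between-run share had a median of 24.3% in the Hox genes and 18.6% over all features. It was high in a few members. Hoxd9 had 66.7%, Hoxc6 63.4%, Hoxa11 58.7%, Hoxd4 57.0% and Hoxc8 54.7%, each above the 95th percentile of all features, 45.7%, and Hoxd10 had 44.2%. Next came Hoxa5 with 35.1%, Hoxb2 with 28.2%, Hoxc9 with 26.9%, Hoxb3 with 26.8%, Hoxa10 with 26.6% and Hoxb6 with 25.9%. The share was 5.33% for Hoxd1, 5.78% for Hoxd3 and 6.16% for Hoxd12. Thus Hoxd3, the Hoxd member with the largest spread among mice, varied almost wholly within runs. None of the 7 Hoxb members and none of the 5 anterior members was above that percentile.

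**Figure D1:**
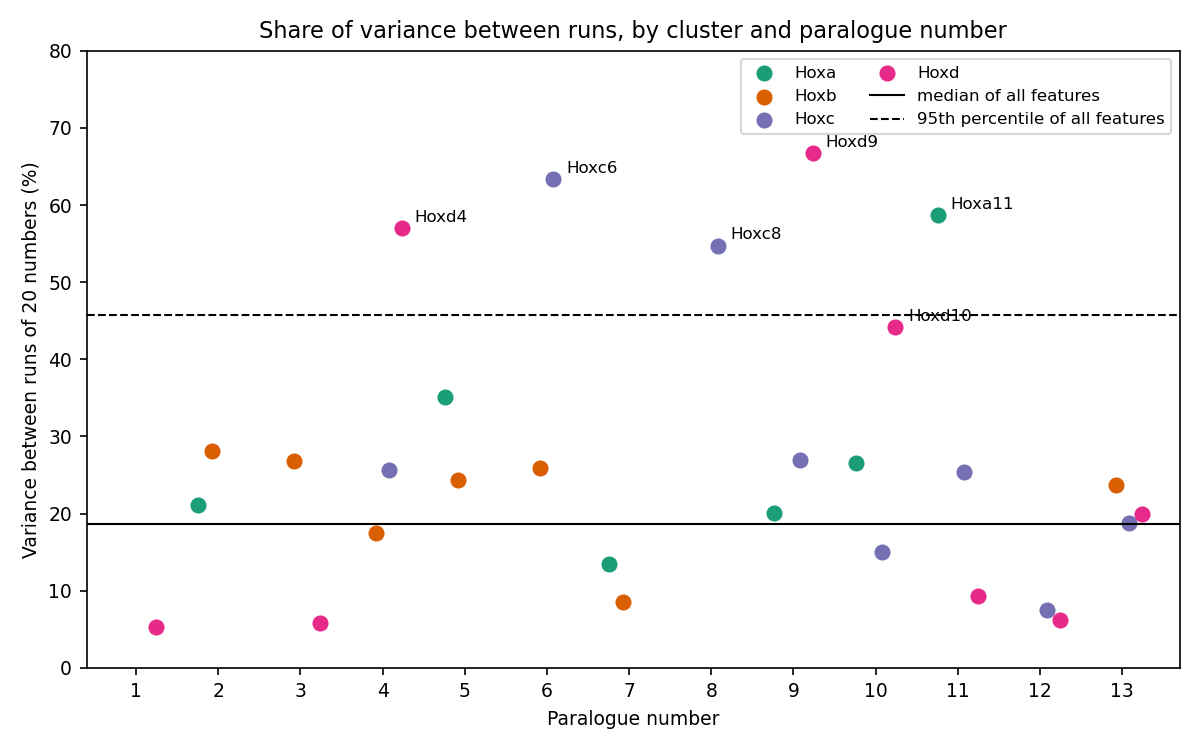
Share of variance between runs of 20 mouse numbers (percent, vertical axis) for each Hox gene by paralogue number, 1 point a gene, coloured by cluster. Lines give the median of all features, 18.6%, and the 95th percentile, 45.7%; Hoxd9, Hoxc6, Hoxa11, Hoxd4 and Hoxc8 lie above the dashed line.

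Each run was also set against the unweighted mean of the other 15 runs. Of the 464 comparisons of 29 members with 16 runs, 147 passed the adjusted threshold of 0.05, which is 31.7%, against 25.5% over all features. Differences of at least 0.3 on the log2 scale besides passing were 42, or 9.05%, against 4.23% over all features, a size chosen after the values were seen. The share of members that passed was near that of all features in some runs and not in others. In 111 to 130, 31.0% of members rose, against 8.86% of features. In 211 to 230, 24.1% of members fell, against 4.75% of features. In 331 to 350, 6.90% of members rose, against 15.9% of features.

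In 51 to 70, 4 of 29 members rose, against 12.9% of all features, and 5 fell, against 11.0%. In 71 to 90, 6 rose (11.3% of features) and 5 fell (8.58%). Both runs had Hoxa10, Hoxa11, Hoxc6 and Hoxc8 among those that rose and Hoxd4, Hoxd9 and Hoxd10 among those that fell. In 91 to 110, 8 rose (14.9% of features) and 2, Hoxa11 and Hoxb6, fell (12.7%). In 111 to 130, 9 rose, against 8.86% of features, which were Hoxb4, Hoxb5, Hoxb13, Hoxc4, Hoxc8, Hoxc11, Hoxc13, Hoxd4 and Hoxd9, and Hoxa11 alone fell (7.95%). Of these, 5 were central members. In 131 to 150, 9 rose (24.2% of features), 6 of them posterior, and 5 fell (16.1%). In 151 to 170, Hoxd4 and Hoxd9 rose (9.40%) and Hoxa9, Hoxb6 and Hoxc8 fell (6.13%). In 171 to 190, 4 rose (16.5%) and 6 fell (10.7%), among them all 3 measured central Hoxc genes, Hoxc4, Hoxc6 and Hoxc8.

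In 191 to 210, 9 rose (16.2% of features) and 4, Hoxb2, Hoxc6, Hoxd12 and Hoxd13, fell (10.6%). In 211 to 230, 7 fell, against 4.75% of features, which were Hoxa10, Hoxa11, Hoxb4, Hoxc4, Hoxc6, Hoxc8 and Hoxc11, and Hoxd9 and Hoxd10 rose (5.37%). The next run, 231 to 250, shared 6 of those that fell (11.5%), all but Hoxb4, and 4 rose (11.4%). In 251 to 270, 4 rose (11.3%) and Hoxa10 and Hoxa11 fell (12.3%). In 271 to 290, 3 rose (11.6%) and 6 fell (13.9%), and in 291 to 310, 6 rose (16.7%) and 7 fell (23.4%). The Hoxd genes that fell in both were again Hoxd4, Hoxd9 and Hoxd10. In 311 to 330, Hoxa11 and Hoxd13 rose (14.7%) and 6 fell (22.1%). In 331 to 350, Hoxa11 and Hoxd4 rose (15.9%) and 7 fell (28.1%). In the last run, 351 to 362, Hoxc9 fell (3.66%) and no member rose (3.51%); limma put 6 members higher and 1 lower there at an unadjusted p under 0.05.

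**Figure D2:**
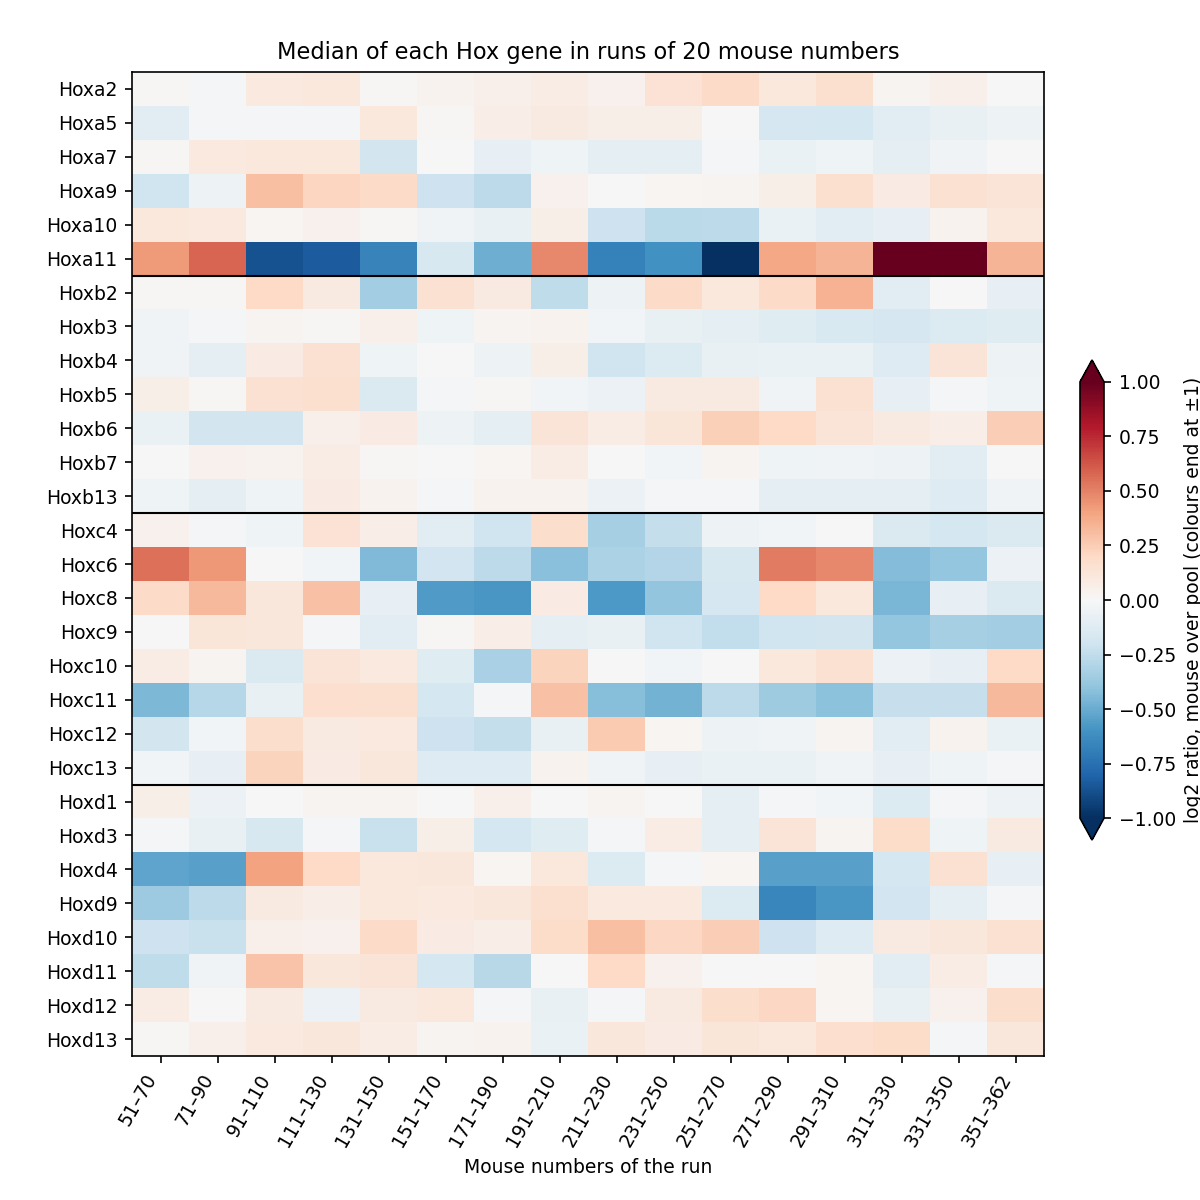
Median log2 ratio of mouse over pool for each Hox gene (down the page, by cluster and paralogue number) in each run of 20 mouse numbers (across), with colours that end at 1 above or below the pool. Hoxc6 is above the pool and Hoxd4, Hoxd9 and Hoxd10 below it in the numbers 51 to 90 and 271 to 310, and Hoxa11 is highest in 311 to 350.

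Among the central Hoxc genes, Hoxc6 and Hoxc8 were high in 4 runs far apart in number, 51 to 70, 71 to 90, 271 to 290 and 291 to 310, which were grouped after their values were seen. Hoxc6, which acts in the upper thorax and shoulder, ranged from -0.42 to 1.07 in 51 to 70 (median 0.55), from -0.06 to 0.89 in 71 to 90 (median 0.43), from 0.18 to 0.86 in 271 to 290 (median 0.52) and from 0.14 to 0.88 in 291 to 310 (median 0.48). In these 4 runs 74 of 76 mice were above the pool, against 41 of 209 mice in the other runs, with overlap between the groups. Set against the mean of its other runs, Hoxc6 rose by 0.59 ± 0.07 (SE), 0.61 ± 0.07, 0.63 ± 0.06 and 0.59 ± 0.06 in these runs in order of number, with limma adjusted p of 4.52e-14, 1.86e-14, 3.59e-17 and 2.74e-15. It fell in 7 runs, among them 131 to 150, with a median of -0.44 (-1.05 to -0.09), and 191 to 210, with a median of -0.42 (-1.08 to 0.16).

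Hoxc8, which gives thoracic vertebrae and brachial motor neurons their identity, had a wider set of high runs. Its medians were 0.19 in 51 to 70 (-0.11 to 0.88), 0.32 in 71 to 90 (-0.04 to 1.34), 0.11 in 91 to 110 (-0.17 to 0.57), 0.30 in 111 to 130 (-0.12 to 0.74), 0.20 in 271 to 290 (-0.41 to 0.61) and 0.11 in 291 to 310 (-0.22 to 0.58). All 6 runs were higher than their other runs, by 0.23 ± 0.07 in 291 to 310 (limma adjusted p = 0.00379) to 0.48 ± 0.07 in 71 to 90 (adjusted p = 7.42e-09). Its lowest medians were -0.56 in 151 to 170, -0.58 in 171 to 190 and -0.57 in 211 to 230. The difference there was -0.42 ± 0.07, -0.56 ± 0.08 and -0.52 ± 0.07, and mice of these runs still reached up to 0.36, into the range of the high runs.

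Hoxd4, Hoxd9 and Hoxd10 went the other way in the same 4 runs. Hoxd4, which acts at the border of hindbrain and neck, ranged from -0.95 to -0.01 in 51 to 70 (median -0.53), from -0.90 to 0.22 in 71 to 90 (median -0.54), from -0.81 to 0.003 in 271 to 290 (median -0.54) and from -1.02 to 0.04 in 291 to 310 (median -0.54). Of these 76 mice 72 were below the pool, against 86 of 209 in the other runs. The differences from the other runs were -0.43 ± 0.06, -0.47 ± 0.06, -0.46 ± 0.06 and -0.44 ± 0.06, with limma adjusted p of 2.32e-10, 4.86e-12, 1.95e-12 and 7.56e-12. Hoxd4 was highest in 91 to 110, the run right after the low numbers, where it ranged from -0.16 to 0.69 with a median of 0.40 and the difference was 0.46 ± 0.06 (adjusted p = 1.92e-09).

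Hoxd9, a gene of the limb and the lumbar region, had the sharpest blocks of any member. It ranged from -0.48 to -0.05 in 51 to 70 (median -0.36), from -0.48 to -0.05 in 71 to 90 (median -0.26), from -1.17 to -0.31 in 271 to 290 (median -0.65) and from -0.89 to -0.33 in 291 to 310 (median -0.58). All 76 of these mice lay below the pool, against 72 of 209 in the other runs, so the groups overlapped only below the pool. The difference was -0.25 ± 0.05 and -0.22 ± 0.05 in the low-numbered pair of runs (limma adjusted p = 4.40e-06 and 0.000106), and -0.63 ± 0.04 and -0.55 ± 0.04 in the high-numbered pair (adjusted p = 1.73e-31 and 2.63e-25). In each of the 8 runs from 91 to 250 Hoxd9 rose, by 0.15 to 0.29.

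Hoxd10, which acts in the hind limb and in lumbar motor neurons, was low in the same 4 runs. Its differences were larger in size than those of Hoxd9 in 51 to 90 and smaller in 271 to 310. Hoxd10 ranged from -0.65 to -0.06 in 51 to 70 (median -0.21), from -0.36 to 0.11 in 71 to 90 (median -0.22), from -0.39 to 0.43 in 271 to 290 (median -0.21) and from -0.46 to 0.09 in 291 to 310 (median -0.13). Here 64 of 76 mice were below the pool, against 35 of 209 in the other runs. The differences were -0.35 ± 0.05, -0.27 ± 0.05, -0.28 ± 0.05 and -0.24 ± 0.05 (limma adjusted p = 2.79e-10, 3.41e-06, 9.75e-08 and 7.89e-06). Its highest median, 0.30, was in 211 to 230, with a difference of 0.23 ± 0.05 (adjusted p = 0.000137). Hoxd11, Hoxd12 and Hoxd13, the genes of the far limb at the end of the cluster, and Hoxd1 and Hoxd3 at its other end passed in none of these 4 runs, except Hoxd13 in 291 to 310, where it rose by 0.12 with a median of 0.17.

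**Figure D3:**
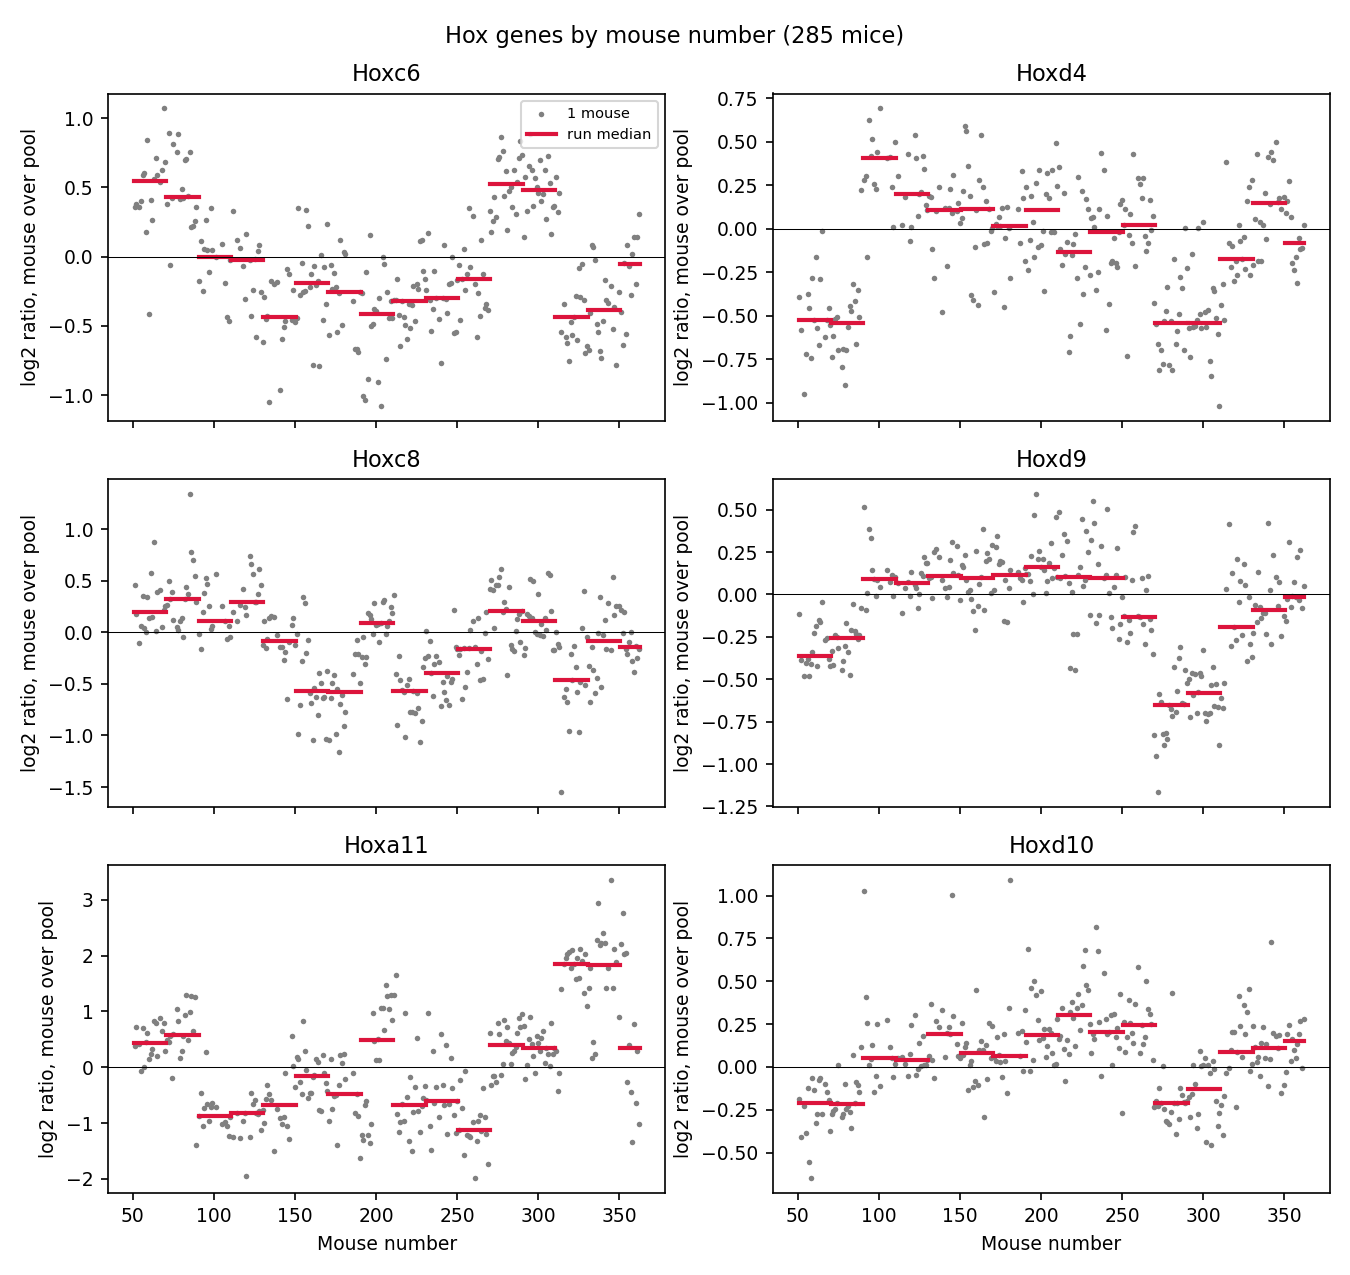
Log2 ratio of mouse over pool (vertical axis) of Hoxc6, Hoxc8, Hoxa11, Hoxd4, Hoxd9 and Hoxd10 against the mouse number (horizontal axis), 1 grey point a mouse, with the median of each run of 20 numbers in red. All 76 mice of the numbers 51 to 90 and 271 to 310 lie below 0 for Hoxd9, and 30 of the 37 mice of 311 to 350 lie at 1 or more for Hoxa11. Both sets of numbers were grouped after the values were seen.

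Hoxa11 kept another timetable. It ranged from -0.42 to 2.12 in 311 to 330 (median 1.86) and from 0.16 to 3.35 in 331 to 350 (median 1.84). In these 37 mice it was at least 2 times the pool in 30, against 16 of the 248 other mice, so the groups overlapped. The 2 runs were joined after their values were seen. The differences were 1.54 ± 0.16 and 1.79 ± 0.16 (limma adjusted p = 8.57e-16 and 1.03e-20). It also rose in 51 to 70 and 71 to 90, where its medians were 0.43 and 0.58, by 0.44 and 0.55, while in 271 to 290 and 291 to 310 its medians of 0.39 and 0.34 gave differences of 0.32 and 0.31 that did not pass (adjusted p = 0.126 and 0.0948). Its lowest run was 251 to 270, from -1.98 to 0.61 with a median of -1.12 and a difference of -1.08 ± 0.16 (adjusted p = 9.47e-09). In 191 to 210 its mice were spread from -1.36 to 1.47, and the difference of 0.13 did not pass. Hoxa10, which acts in the lower back and thigh, shared 5 calls with Hoxa11 in the same direction. Both rose in 51 to 70 and 71 to 90, where Hoxa10 had medians of 0.11 and 0.10, and both fell in the 3 runs from 211 to 270, where it had medians of -0.21, -0.27 and -0.26. Hoxa10 rose in 191 to 210 (median 0.06), and in 311 to 330 and 331 to 350, where Hoxa11 was highest, its differences of -0.04 and 0.05 did not pass. Over the mice the pair had an r of 0.290 and a rho of 0.284 (permutation adjusted p = 2.56e-05 and 2.87e-05), and an r of 0.256 without the 2 mice farthest from the Hoxa10 median and of 0.276 within runs.

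Hoxa5, which patterns the neck and upper thorax, had its lowest run medians in 271 to 290 and 291 to 310. It ranged from -0.30 to -0.05 in 271 to 290 (median -0.17) and from -0.40 to 0.23 in 291 to 310 (median -0.17). The differences were -0.17 ± 0.03 and -0.16 ± 0.03 (limma adjusted p = 3.07e-07 and 6.51e-07). It also fell in 51 to 70, by 0.09 (adjusted p = 0.015), and in 311 to 330, by 0.07 (adjusted p = 0.0437), but in 71 to 90 its difference of -0.04 did not pass. All 20 mice of 271 to 290 were below the pool, while in 131 to 150 all 16 were above it, from 0.01 to 0.46 with a median of 0.10. That run's difference was 0.17 ± 0.03 (adjusted p = 8.80e-06).

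In the Hoxb cluster Hoxb2 and Hoxb3 passed in opposite directions in 4 runs, 131 to 150, 191 to 210, 271 to 290 and 291 to 310. Hoxb2 was lowest in 131 to 150, from -1.26 to -0.01 with a median of -0.35 and a difference of -0.46 ± 0.07 (limma adjusted p = 1.41e-07). It was highest in 291 to 310, from -0.12 to 0.67 with a median of 0.35 and a difference of 0.33 ± 0.07 (adjusted p = 1.25e-05). These ranges overlap by a narrow margin. It also rose in 271 to 290, by 0.20, and fell in 191 to 210, by 0.32. Hoxb3, a hindbrain and neck gene, was above its other runs in 131 to 150 by 0.13 ± 0.03 (adjusted p = 0.000856). With the first 5 principal components of the arrays removed, which held 76.1% of its variance, that difference was -0.017 and did not pass. Hoxb3 also rose in 171 to 190 and 191 to 210, by 0.09 and 0.11, and fell in the 4 runs from 271 to 350, by 0.07 to 0.13. Hoxb6, which acts in the thorax and the flank, fell in 71 to 90, with a median of -0.18 and a difference of -0.26 ± 0.05 (adjusted p = 2.57e-06), and in 91 to 110, with a median of -0.19 and a difference of -0.20 ± 0.05 (adjusted p = 0.00175). It fell by 0.12 in 151 to 170 and rose in 251 to 270, where its range was 0.0005 to 0.45, its median 0.24 and its difference 0.19 ± 0.05 (adjusted p = 0.00106). Hoxb5 passed in 5 runs with differences of at most 0.19 in size, Hoxb13 in 5 and Hoxb4 in 3 with at most 0.20, and Hoxb7 in 1, 331 to 350, where it fell by 0.10.

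The posterior Hoxc genes differed from Hoxc6 and Hoxc8. Hoxc9, which sets the identity of thoracic motor neurons, was low in the 3 runs from 311 on, with medians of -0.39, -0.33 and -0.35 and differences of -0.44 ± 0.07, -0.19 ± 0.07 and -0.28 ± 0.09 (limma adjusted p = 1.17e-07, 0.0244 and 0.0306). In 311 to 330 it ranged from -3.40 to -0.002. Without mouse 314, the mouse at -3.40, the difference there was -0.28 ± 0.06 (adjusted p = 3.20e-05). Hoxc10, a gene of the hind limb, fell by 0.29 in the same run with that mouse and had a difference of -0.12 ± 0.07 without it (adjusted p = 0.162), which ends the call. Hoxc11 was high in 191 to 210, from -0.69 to 0.99 with a median of 0.30 and a difference of 0.44 ± 0.10 (adjusted p = 0.00036), and low in 231 to 250, from -1.59 to 0.10 with a median of -0.47 and a difference of -0.40 ± 0.11 (adjusted p = 0.00244). Hoxc4, at the other end of the cluster, was also high in 191 to 210 and low in 211 to 230, with medians of 0.17 and -0.33.

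The remaining members were outside the 12 of largest between-run share. The run medians of Hoxa2, a hindbrain gene, lay between -0.02 and 0.19, and those of Hoxa7, a thoracic gene, between -0.18 and 0.11. Hoxa9, Hoxd11, Hoxc12 and Hoxc13 had run medians from -0.27 to 0.30, and the largest differences that passed among them were 0.27 for Hoxa9 and 0.26 for Hoxd11 in 131 to 150 on the high side and -0.28 for Hoxa9 in 171 to 190 on the low side. The digit gene Hoxd13 rose in 291 to 310 and 311 to 330, with medians of 0.17 and 0.18, and fell in 191 to 210 and 331 to 350, with medians of -0.07 and -0.01. Hoxc10 had its lowest median, -0.32, in 171 to 190. The run medians of Hoxd12 lay between -0.08 and 0.20 and those of Hoxd1 between -0.14 and 0.06.

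Markers of slow muscle fibres, tendon and some other cell types moved in the same runs. Of all features, 12.9%, 11.3%, 11.6% and 16.7% rose in 51 to 70, 71 to 90, 271 to 290 and 291 to 310. In these runs 11.0%, 8.58%, 13.9% and 23.4% of all features fell. In 51 to 70, 71 to 90, 271 to 290 and 291 to 310, 9, 7, 9 and 8 of the 9 measured slow fibre markers fell, and the median of their mean level was -2.52, -1.74, -1.93 and -1.97. Of 8 tendon markers 5, 5, 6 and 6 rose there, with medians of 0.78, 0.43, 1.27 and 1.17, and all 6 matrix fibroblast markers rose in both runs of 271 to 310. Of 5 macrophage markers 4 rose and 1 fell in each of those runs, and of 4 brown fat markers 3 rose in 271 to 290, with a median level of 1.16. Of 5 satellite cell markers 3 rose in each of 51 to 70 and 71 to 90, and 1 fell in 51 to 70. Of 4 Schwann cell markers 2 fell in each of these runs. In 291 to 310, 1 Schwann cell marker rose and 2 fell, and in 271 to 290, 1 rose. Of brown fat markers 1 rose and 1 fell in 51 to 70 and in 291 to 310, and 2 rose in 71 to 90. Of 5 fast fibre markers 1, 0, 1 and 2 rose in the 4 runs in order, and 0 fell. Of 5 endothelium markers 1 rose in each, and 2, 1, 0 and 2 fell. At most 1 white fat marker and 1 skin marker passed in any of these 4 runs. In 311 to 330, where Hoxa11 was high, 5 tendon markers and 6 slow fibre markers rose and none of them fell, and 3 brown fat markers rose and 1 fell. In 331 to 350, 2 tendon markers rose and 2 fell, 8 slow fibre markers rose and 1 fell, and all 4 lymphocyte markers rose, with Cd22 at a median of 3.39. In both runs 2 Schwann cell markers and 2 of 4 white fat markers rose. Of 3 skin markers 2 fell in the first of these runs and 2 rose in the second. Of all features, 14.7% and 15.9% rose and 22.1% and 28.1% fell in 311 to 330 and 331 to 350. The mean level over slow fibre markers ranged from -2.97 to 1.20 among mice, and the tendon mean from -1.38 to 1.68. None of these values is a count of cells, and their part in the Hox differences was not tested. The mean of the 2 measured sex chromosome genes ranged from -5.22 to 1.92, and their median between-run share was 7.13%.

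Of 17 measured genes of limb and body position, a list that holds no Hox gene, 14 passed across runs, near the 84.6% of all features, and a few had high shares. Irx5, an Iroquois homeobox gene of limb and heart patterning, had a between-run share of 78.8% and medians of -1.58, -1.64, -1.90 and -1.98 in the 4 runs 51 to 70, 71 to 90, 271 to 290 and 291 to 310, with a highest run median of 0.51 in 111 to 130. En1, the engrailed gene of the ventral limb, had a share of 73.2% and medians of 0.96, 1.26, 1.36 and 1.46 in these runs, and of 0.90 and 0.64 in 311 to 330 and 331 to 350. Zic1 followed with 49.7% and medians of 0.68, 0.70, 0.63 and 0.70. Tbx15, a T-box gene of limb, skin and muscle, had 52.6% and its highest median, 0.45, in 291 to 310.

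Hox proteins bind DNA with partners of the TALE class, and all 8 measured TALE genes passed across runs. This count and those of the following lists stand beside 84.6% of all features. Meis2, one of these partners, had a between-run share of 65.9% and medians of -0.42, -0.44, -0.52 and -0.53 in the 4 runs in which Hoxd4, Hoxd9 and Hoxd10 were low. Pbx2 had 29.4%, Pbx3 22.2% and Pknox1 16.0%. Of 12 genes that act upstream of Hox clusters, such as those of retinoic acid signalling, 10 passed. The receptor genes Rxrb and Rxra had shares of 46.0% and 40.1%, Rara 18.8% and the retinoic acid synthesis gene Aldh1a2 21.7%, with run medians between -0.21 and 0.21. All 21 measured Polycomb and Trithorax genes, which hold Hox clusters silent or active, passed. Cbx8 led them with 54.7%, and its median was -0.42 in 271 to 290 and 0.13 in 91 to 110. Ash2l, Pcgf2 and Rbbp5 followed with 38.4%, 38.3% and 34.7%. The median share of the 4 lists was 15.6% for TALE, 17.5% for upstream genes, 22.9% for Polycomb and Trithorax and 23.4% for position genes, beside 18.6% for all features.

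Genes outside the clusters whose values most resembled the member of largest between-run share in each cluster were found over 285 mice among 11593 genes, as a description, since mice of one run share whatever the run shares. Hoxc6 was most like Tbx1 (Pearson r = 0.793), Twist1 (0.711) and Slc8a1 (0.706), and least like the slow fibre gene Tnnc1 (-0.674) and Irx5 (-0.658). With run means removed these were 0.476, 0.421, 0.344, -0.157 and -0.0330. Hoxd9 was most like Irx5 (0.793), Osr2 (0.714) and the slow fibre gene Tnni1 (0.663), and least like Egfl6 (-0.739) and Wif1 (-0.729), and within runs these were 0.456, 0.307, 0.219, -0.296 and -0.322. Hoxa11 was most like En1 (0.649), B4galnt4 (0.621) and Mss51 (0.601), and least like Tmem9 (-0.625) and Osr1 (-0.599), and within runs these were 0.579, 0.373, 0.483, -0.388 and -0.347. Hoxb2 was most like Mtmr11 (0.715), the pericyte receptor gene Pdgfrb (0.691) and Fam20a (0.682), and least like Tcp10a (-0.671) and SPACA4 (-0.651), with within-run values from 0.607 to 0.667 and of -0.678 and -0.627. The likenesses of Hoxc6, Hoxd9 and Hoxa11 thus shrank when run means were removed, that of Hoxa11 with En1 the least. Those of Hoxb2 mostly changed less, though its value with Pdgfrb went from 0.691 to 0.607.

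Along the mouse number as a straight line, 19 of 29 Hox genes had a slope, 7 higher and 12 lower with the number, which is 65.5% against 64.1% of all features, of which 25.4% were higher and 38.7% lower. The steepest was Hoxa11, 0.40 ± 0.06 per 100 numbers (SE, limma adjusted p = 3.30e-09). Hoxc9 fell by 0.17 ± 0.02 (adjusted p = 2.81e-14), Hoxc8 by 0.11 ± 0.03 (9.33e-05) and Hoxc6 by 0.08 ± 0.03 (0.0088), and Hoxb6 rose by 0.10 ± 0.01 (4.35e-11). A line describes blocks poorly. Hoxd4, with a between-run share of 57.0%, had a slope of -0.0004 ± 0.02. In the 143 lower-numbered mice the slope of Hoxa11 was -0.22 and did not pass, and in the 142 higher-numbered mice that of Hoxc8 was 0.26 (adjusted p = 0.00229), against the direction over all mice. Once the first 5 principal components of the arrays were removed, 0 slopes passed in limma and 4 had an unadjusted p under 0.05.

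Members next to each other by paralogue number in a cluster, here called neighbours, and members with the same paralogue number in different clusters, were set against each other over the mice. Of 46 pairs 28 passed a two-sided permutation test with 100000 shuffles, adjusted over the 46, 20 with a positive and 8 with a negative r. The smallest p the shuffles can give is 1e-05, and they treat mice as exchangeable although runs differ. The 3 pairs with Hoxb3 are given for the 270 mice of the larger of 2 groups into which a mixture model split its values, and the other group had 15 mice. Of the 25 neighbour pairs 14 were positive and 4 negative, and of the 21 paralogue pairs 6 and 4.

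Hoxd4 and Hoxd9, neighbours by paralogue number among the genes measured, had a Pearson r of 0.656 and a Spearman rho of 0.615 over 285 mice (permutation adjusted p = 2.56e-05 and 2.87e-05). Without the 2 mice farthest from the Hoxd4 median r was 0.646, and with run means removed 0.359. Hoxd9 and Hoxd10 had an r of 0.558 and a rho of 0.571, with 0.555 without 2 mice and 0.246 within runs. Hoxd4 and Hoxd10 had an r of 0.414, but 0.050 within runs. Hoxd9 thus went with Hoxd4 and with Hoxd10 both across runs and, more weakly, inside them. Hoxc6 and Hoxc8 had an r of 0.401 and a rho of 0.400, but 0.0781 within runs (permutation adjusted p = 0.222), where the relation no longer passed.

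Other pairs had similar values with run means removed. Hoxc10 and Hoxc11 had an r of 0.514 and a rho of 0.439 (permutation adjusted p = 2.56e-05 and 2.87e-05). Their r was 0.431 without the 2 mice farthest from the Hoxc10 median, and 0.616 within runs with mouse 314 kept. Without mouse 314 their r over the mice was 0.445. Hoxb4 and Hoxb5 had 0.460 and 0.463, with 0.433 and 0.504 for the other measures. The paralogues Hoxb4 and Hoxd4, on different chromosomes, had an r of 0.529 and a rho of 0.528, with 0.531 without 2 mice and 0.620 within runs. Hoxa2 and Hoxb2, the hindbrain paralogues, had an r of 0.361 and a rho of 0.411, with 0.387 and 0.285. The most negative neighbour pair was Hoxb2 and Hoxb3. This pair had an r of -0.410 and a rho of -0.400 in the 270 mice and an r of -0.629 in the 15. Its r in the 270 mice was -0.419 within runs, but -0.0642 with the first 5 principal components of the arrays removed. The negative relation was thus nearly absent once those components were removed.

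Hoxc9 and Hoxc10 gave opposite signs by measure, an r of 0.152 and a rho of -0.178 (permutation adjusted p = 0.0192 and 0.00443). Without mouse 314 the r was -0.233, and within runs 0.180 with that mouse. The positive sign of r over all mice therefore rests on that mouse, while rho was negative with that mouse included. Over all 406 pairs of members the median r was 0.0322, with 0.0620 for the 92 pairs within a cluster and 0.0295 for the 314 pairs between clusters. Within clusters it was 0.210 for Hoxc, 0.0652 for Hoxa, 0.00861 for Hoxb and -0.0119 for Hoxd. In these medians Hoxb3 was taken over all mice, and mouse 314 was kept. Without mouse 314 the r of Hoxc8 and Hoxc9 was 0.328, against 0.380 with it.

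**Figure D4:**
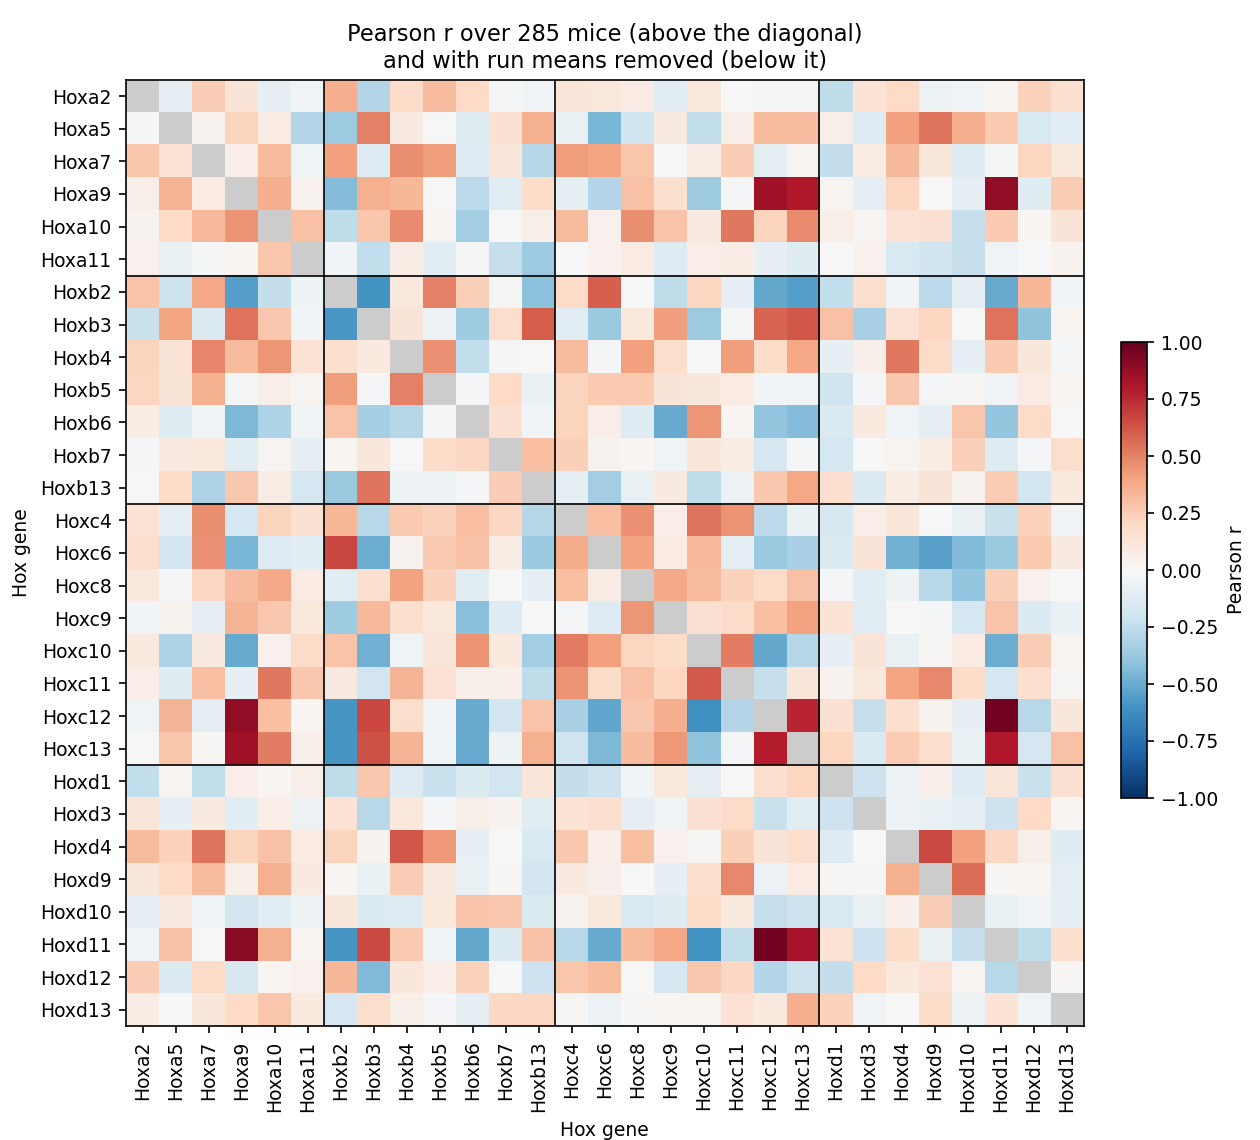
Pearson r over 285 mice for every pair of the 29 Hox genes (above the diagonal) and with run means removed (below it), in red for positive and blue for negative values, with lines between clusters. Hoxa9, Hoxc12, Hoxc13 and Hoxd11 are deep red with each other, at 0.764 to 0.963.

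The highest correlations joined posterior members of 3 clusters. Hoxa9, Hoxc12, Hoxc13 and Hoxd11 had Pearson r values from 0.764 to 0.963 with each other, the highest between Hoxc12 and Hoxd11, and rho values from 0.707 to 0.958. All 4 were highest in mouse 134 and lowest in mouse 196. In the order Hoxa9, Hoxc12, Hoxc13 and Hoxd11 they were at 1.39, 1.52, 1.15 and 1.72 in mouse 134. In mouse 196 they were at -1.01, -1.33, -0.47 and -1.47. The arrays of these 2 mice had wide SDs, 0.52 and 0.38, at percentiles 98.2 and 90.2 of the arrays. The 4 genes were not alone in varying together. Of 21483 other features, 895 had an r above 0.6 with Hoxa9, 872 with Hoxc12, 1416 with Hoxc13 and 968 with Hoxd11. The first 5 components of all arrays held 72.3% to 80.6% of the variance of these 4 genes, against a median of 36.7% over all features. With these components removed, r was 0.886 for Hoxc12 and Hoxd11 and 0.274 for Hoxc12 and Hoxc13. For Hoxd4, Hoxd9 and Hoxd10 the components held 14.8%, 17.7% and 16.8%, and r was 0.674 for Hoxd4 and Hoxd9 with them removed.

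Mouse 314 had a block of low values from Hoxc8 to Hoxc11 in the Hoxc cluster, and this mouse was singled out after its values were seen. It held the lowest value of all 285 mice in 4 genes in a row along the cluster, -1.55 for Hoxc8, -3.40 for Hoxc9, -3.33 for Hoxc10 and -2.64 for Hoxc11. The next lowest mouse was at -1.16, -1.19, -1.32 and -1.59. These values are 2.93, 10.5, 10.1 and 6.25 times below the pool. The genes on both sides of the block were not lowest, with Hoxc4 at -0.13 and Hoxc6 at -0.54 on the one side and Hoxc12 at 1.05 and Hoxc13 at 0.08 on the other. In the other clusters, Hoxa7 at 0.96 was the highest of all mice, Hoxa9 was at 0.98 and Hoxd11 at 1.35. Hoxa11 at 1.41 was below the median of its run, 311 to 330, which was 1.86. Hoxa10 was at -0.05, Hoxd9 at 0.03 and Hoxd10 at -0.03. The first 5 components of all arrays held 72.3% of the variance of Hoxa9 and of Hoxc12, and 80.6% of that of Hoxd11.

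Pitx1, the homeobox gene that marks the hind limb, was at 1.85 in mouse 314 and Irx5 at 1.39, each the highest of 285 mice. Tbx5, a forelimb gene, was at -0.51, rank 5 from the lowest. Other position genes lay on both sides. Counted from the lowest, Lmx1b and Alx4 had rank 282, Emx2 274 and Irx3 272, while Shox2 had rank 40, Tbx15 42 and En1 62. Hoxc10 and Hoxc11, also named above as genes of the hind limb, were the lowest of all mice. The hind limb genes thus did not move together in this mouse. The array of mouse 314 had an SD of 0.42, rank 268 of 285 from the narrowest, and 481 of its 21512 features were lowest and 539 highest of all mice. In it 47 features, 0.218%, were below -2. These counts were not set against those of other arrays. The Hoxc block was thus not alone in being extreme on this array. With 1 array there is no error for this mouse, and the labels give no repeat of it.

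**Figure D5:**
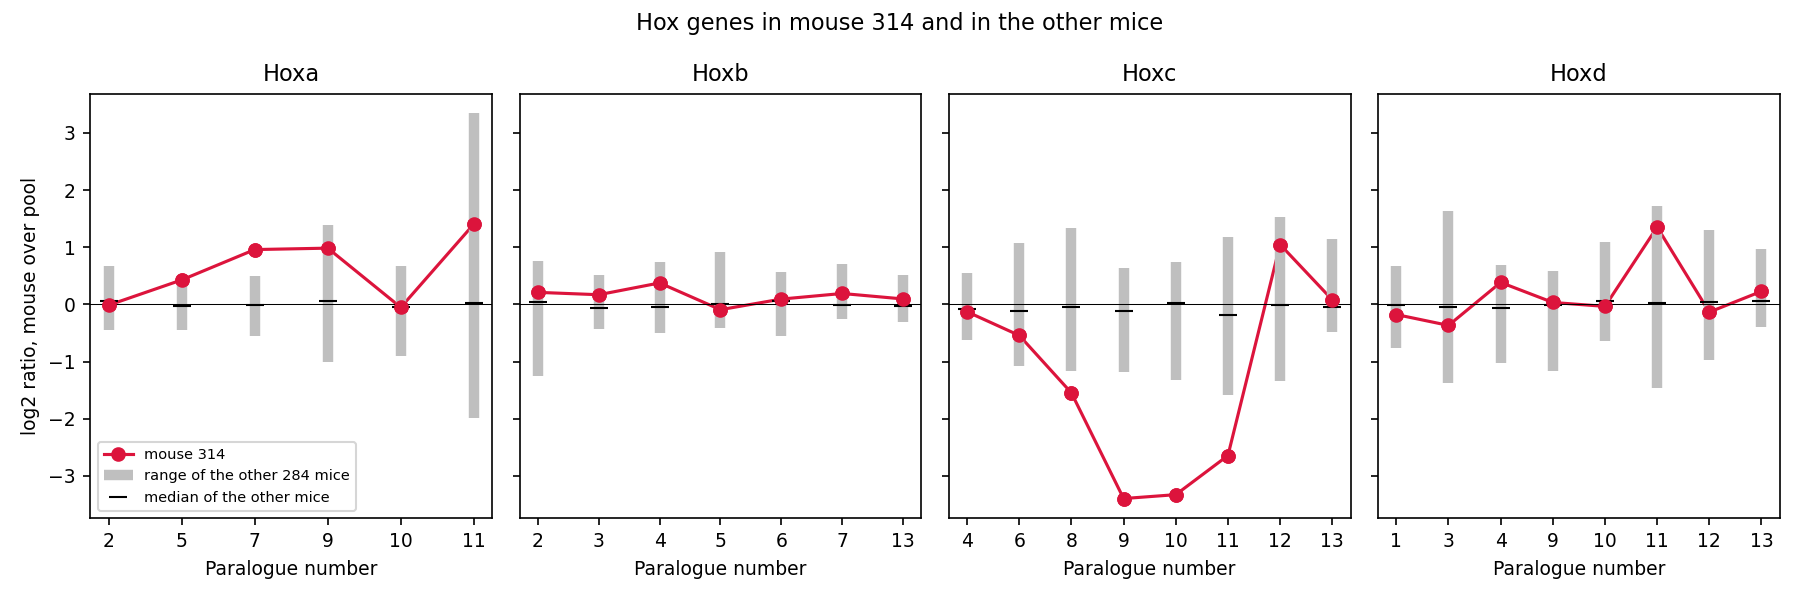
Log2 ratio of mouse over pool (vertical axis) of the Hox genes of each cluster by paralogue number (horizontal axis) in mouse 314 (red points and line), over the range of the other 284 mice (grey bars) and their median (black dashes). Hoxc8 to Hoxc11 of mouse 314 lie below every other mouse, at -1.55, -3.40, -3.33 and -2.64.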

How the data were processed

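Each deposited value was taken as the log10 of the mouse (Cy3) to pool (Cy5) ratio. Dyes are stated per the labels; the unit, the sign, the scanner, the normalization and the genome build are not given in the sources used here. Array medians lay between -0.0222 and 0.0173 and the authors' values end at 2 and -2 on the log10 scale. Mouse over pool was kept because the mean linear ratio of the Y-linked Eif2s3y is 0.796 so and 23.2 with the sign turned, where a pool of all mice calls for about 1. With another base every log2 value here would be scaled by 1 factor, while tests and correlations would stay. Between 2 arrays the median r over features was 0.0743 and the lowest -0.743, and 2.35% of pairs lay below -0.3, which opposite positions of mice around their own pool allow. Array SDs over features were 0.17 to 0.60 on the log2 scale. Signal over background is not known, and the number of arrays limits the precision.

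Of 23560 probes, 23510 had values on at least 80% of arrays. The 0.00181% of their values that were missing were set to the probe mean, none of them in a Hox gene. Symbols were updated through Entrez identifiers for 12650 probes, 13653 carried 1 symbol, 48 several and 9859 none, and probes of one gene were averaged. A probe with the human symbol HOXA3 (SD 0.12) was not counted as a member. Values were converted to log2 and fitted with limma 3.58.1 (lmFit, eBayes) in R 4.3.3 over 21512 features, with Benjamini-Hochberg adjustment and a threshold of 0.05, as an F-test across runs of 20 numbers, each run against the unweighted mean of the others, and a slope per 100 numbers. The p-values measure the spread between mice taken as exchangeable. Neighbouring numbers may share litter or handling, which the labels leave out. Pairs were tested in Python 3.11.15 with scipy 1.17.1 and numpy 2.4.6, and mixtures with mclust 6.1.1 (a gain over 10 in BIC, means over 3 SD apart, at least 5% of mice in each). The fits were tested on simulated data.

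The members and lists were chosen with earlier results of these data known. Members described in full are the 12 with the largest between-run share among those that passed across runs, and the member of largest SD in each cluster. Genes of a list are named if they passed and were among its 4 largest shares. Genes alike are the 3 of highest and 2 of lowest r. The alternatives were other array scales, probes, run limits, ranks, sets of mice, the first 5 components removed, Eif2s3y as covariate and bounded values set to missing.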

Additional observations from a re-analysis of the deposited data

How the results depend on the processing

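Across the runs, 22 to 27 members passed under the 12 alternatives, and the Hox pairs that passed were 28 to 34. The run comparisons that passed numbered 108 with the first 5 components removed and 144 to 154 in the other 7 settings without a size limit. With a difference of at least 0.3 required, a limit chosen after seeing the data, 42 passed. Of the 147 that passed first, 10 changed sign with the components removed and 0 in the other 7 settings. Slopes that passed in limma numbered 0 with the components removed and 19 with them kept. Those with an unadjusted p under 0.05 in limma numbered 4 and 20. Of 486 values of 51 single results, 465 kept direction and call, 17 kept direction but no longer passed, and 4 changed sign. These 4 were Hoxb3 in 131 to 150 with the components removed (-0.017), the slope of Hoxa11 in the lower-numbered mice (-0.22), the slope of Hoxc8 in the higher-numbered mice (0.26) and that of Hoxb6 there (-0.0050). The cause was not tested. Leaving out mouse 314, also chosen after seeing the data, gave 25 members across runs, 154 run comparisons, 19 slopes and 28 pairs. No paired analysis was possible because the labels give 1 group of mice and no replicate numbers shared between groups. The files hold ratios without intensities, so how signal over background limits the low genes is not known.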
